A study of Mus musculus with 7 samples.

Results

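Glycogen and glycolysis enzymes were followed in the retinal pigment epithelium, or RPE, of mouse pups at postnatal day 5. The RPE is a sheet of pigmented cells that nourishes the photoreceptors. The 9 genes were Pygl, Hkdc1, Hk1, Pfkp, Pfkl, Aldoc, Eno3, Fbp1 and Fbp2, out of 5017 genes with values here. They were taken as every probe set that the platform annotation assigns to 1 of these symbols alone, which gave 147 of 53644 probe sets, from 7 for Fbp2 to 25 for Hk1 and Pfkp. The genes were named with the log2 differences between these same Dicer1-deficient and control arrays in view and count as selected on them, so the differences of these 9 genes are given as a description, without a test. Every gene given with values below lies on chromosome 1 or 10 to 13 in RefSeq, apart from Pgk1 and Mpc1. Measured means present among these values, and a listed gene that was not measured may still be on the array. Shares over all genes or probe sets refer to these values alone.

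The Dicer1-deficient group held 3 Affymetrix arrays of pups that carried loxP-flanked Dicer1 on both alleles and a Cre transgene under the Dct promoter. The control group held 4 arrays labelled only as control RPE. All pups came from a mating of Dicer1 flox/+ Dct-cre with Dicer1 flox/flox mice, so each inherited at least 1 floxed allele, and the labels do not give the genotype or Cre status of the controls. The product of Dicer1 trims precursor hairpins to mature microRNAs, and Dct, which encodes dopachrome tautomerase, is active in pigment cells including melanocytes. Nothing in the labels says whether arrays came from separate animals or pooled eyes, so the spread between arrays may be partly technical.

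Signals were on the log2 scale, and their overall median was 6.22, with a lower quartile of 4.63. The brightest of the 28 probe sets of Dicer1 read 10.57 ± 0.13 (SD, n = 3) in Dicer1-deficient arrays and 10.62 ± 0.26 (SD, n = 4) in controls. The labels do not say whether it lies in the deleted part, and the other probe sets of Dicer1 are not given here. Control 4 stood apart, correlating with the other arrays at 0.943 to 0.951 across all probe sets, against 0.980 to 0.984 among the Dicer1-deficient arrays and 0.986 to 0.988 among controls 1 to 3. The median signal of control 4 was also lower, at 6.05, against 6.22 to 6.26 in the other arrays. Of 22 RPE and pigment markers listed, 8 were measured, and Pmel (12.61 in Dicer1-deficient arrays and 12.66 in controls) and Serpinf1 (11.90 and 12.13) were bright in both groups. Rpe65, Rlbp1 and the other listed markers were not analysed here. In dissected tissue, fewer cells of a type and less RNA per cell cannot be told apart.

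Glycogen phosphorylase releases glucose phosphate from stored glycogen. In glycolysis, hexokinases trap glucose in the cell by phosphorylating it, phosphofructokinases commit it to breakdown, aldolases split the sugar and enolases act near the end of the path. Fructose bisphosphatases run the phosphofructokinase step in the opposite direction during glucose synthesis. The RPE lies between the choroidal blood supply and the photoreceptors and passes glucose on to them, while photoreceptors release lactate that the RPE can use as fuel.

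The 300-base windows around the annotated start sites of Pygl, Hkdc1 and Hk1 are shown because these were the 3 genes whose Dicer1-deficient arrays all read above every control array. They run from 250 bases before to 50 bases after a start site and come from RefSeq on GRCm38.p6, which had windows for all 9 genes. All are on the minus strand and are written 5′ to 3′. Capitals mark ACGTG, a form of the core of the hypoxia response element, read on both strands. The form GCGTG was neither marked nor counted. The Pygl window is chr12:70227634-70227933 and that of Hkdc1 is chr10:62422408-62422707. Hk1 has 2 annotated windows, the one nearer to Hkdc1 (Hk1a) at chr10:62379859-62380158 and the other (Hk1b) at chr10:62340372-62340671.
Pygl: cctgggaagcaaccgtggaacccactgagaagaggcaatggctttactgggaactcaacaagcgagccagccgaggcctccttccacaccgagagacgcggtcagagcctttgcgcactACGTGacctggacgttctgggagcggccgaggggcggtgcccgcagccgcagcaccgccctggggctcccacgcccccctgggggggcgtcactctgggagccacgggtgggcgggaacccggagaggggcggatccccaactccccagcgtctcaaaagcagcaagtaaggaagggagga
Hkdc1: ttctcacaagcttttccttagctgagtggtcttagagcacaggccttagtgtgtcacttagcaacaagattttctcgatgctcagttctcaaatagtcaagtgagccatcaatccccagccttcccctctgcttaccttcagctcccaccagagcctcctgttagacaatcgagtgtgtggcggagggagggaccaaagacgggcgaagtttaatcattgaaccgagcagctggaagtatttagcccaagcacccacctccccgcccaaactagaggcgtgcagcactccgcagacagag
Hk1a: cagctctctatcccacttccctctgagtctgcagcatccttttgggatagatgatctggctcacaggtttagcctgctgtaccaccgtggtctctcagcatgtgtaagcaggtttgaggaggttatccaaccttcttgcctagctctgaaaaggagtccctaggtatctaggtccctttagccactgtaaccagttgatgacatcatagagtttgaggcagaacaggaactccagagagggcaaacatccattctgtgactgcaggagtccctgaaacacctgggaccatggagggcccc
Hk1b: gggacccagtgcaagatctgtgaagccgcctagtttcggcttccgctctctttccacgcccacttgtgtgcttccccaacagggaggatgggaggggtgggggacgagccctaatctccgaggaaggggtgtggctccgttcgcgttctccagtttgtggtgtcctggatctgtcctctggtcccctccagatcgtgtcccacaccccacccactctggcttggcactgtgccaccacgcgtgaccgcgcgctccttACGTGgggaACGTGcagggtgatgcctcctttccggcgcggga

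The windows were unlike each other in composition. GC content was 67% in Pygl and 63.3% in Hk1b, against 52.3% in Hkdc1 and 51.3% in Hk1a, and the median of all 32851 RefSeq windows of this length was 52.7%. ACGTG occurred 1 time in the Pygl window and 2 times in Hk1b, and was not found in the windows of Hkdc1 and Hk1a. Of the windows not printed, 1 of the 2 of Aldoc held it 1 time and that of Fbp2 held it 2 times, overlapping on opposite strands, while those of Pfkp, Pfkl, Eno3 and Fbp1 did not. It occurred in 19.6% of all windows. GGGCGG, the GC box, occurred 4 times in Pygl and 1 time in Hkdc1, and was not found in Hk1a and Hk1b. Among the windows not printed, that of Pfkp held it 4 times and that of Pfkl 3 times. Fbp1 and 1 of the 2 windows of Aldoc held it 1 time, and those of Eno3 and Fbp2 did not. It occurred in 35.7% of all windows on either strand. TATAAA, which 13.6% of all windows held, was found in none of the 4 printed windows.

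The glycogen phosphorylase gene had the largest difference of the 9. Pygl, on chromosome 12, encodes the liver form of the enzyme. At its brightest probe set the log2 signal was 10.49, 10.15 and 10.48 in the Dicer1-deficient arrays, against 8.90, 8.82, 9.31 and 9.14 in the controls. The groups did not overlap, and the lowest Dicer1-deficient array lay above the highest control. Means were 10.37 ± 0.19 (SD, n = 3) in Dicer1-deficient arrays and 9.04 ± 0.22 (SD, n = 4) in controls, a log2 difference of 1.33 (limma SE 0.15) or 2.51-fold.

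All 21 probe sets of Pygl were higher in the Dicer1-deficient arrays, by 0.39 to 2.26 on the log2 scale with a median of 1.60. The groups did not overlap in 17 of them, where 7.35% of all probe sets had that pattern in this direction. Of its 13 probe sets with a mean signal at or above the median of all values, all 13 were of this kind, with a median difference of 1.81. The 4 probe sets with overlapping groups were all below that median, and so were 4 others. The smallest differences, 0.39 and 0.40, came from probe sets 10400845 and 10400846, which read between 4.62 and 5.61 on every array.

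The difference of Pygl was larger at several other bright probe sets than at the brightest one. Probe set 10400860 read 9.45, 9.66 and 9.31 in Dicer1-deficient arrays, against 7.41, 7.80, 8.10 and 6.53 in controls, a difference of 2.01. Control 4 was the lowest of the 7 arrays at 8 of the 21 probe sets. Without it the median difference was 1.39, and the groups were apart at 19 probe sets, where 11.7% of all probe sets had them apart in this direction with 3 arrays on each side. Dicer1-deficient array 2 was the highest of its group at 17 of the 21 probe sets, although it was the lowest at the brightest. Pygl thus differed in the same direction along its whole set of measured parts, by an amount that varied with the probe set.

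**Figure D1:**
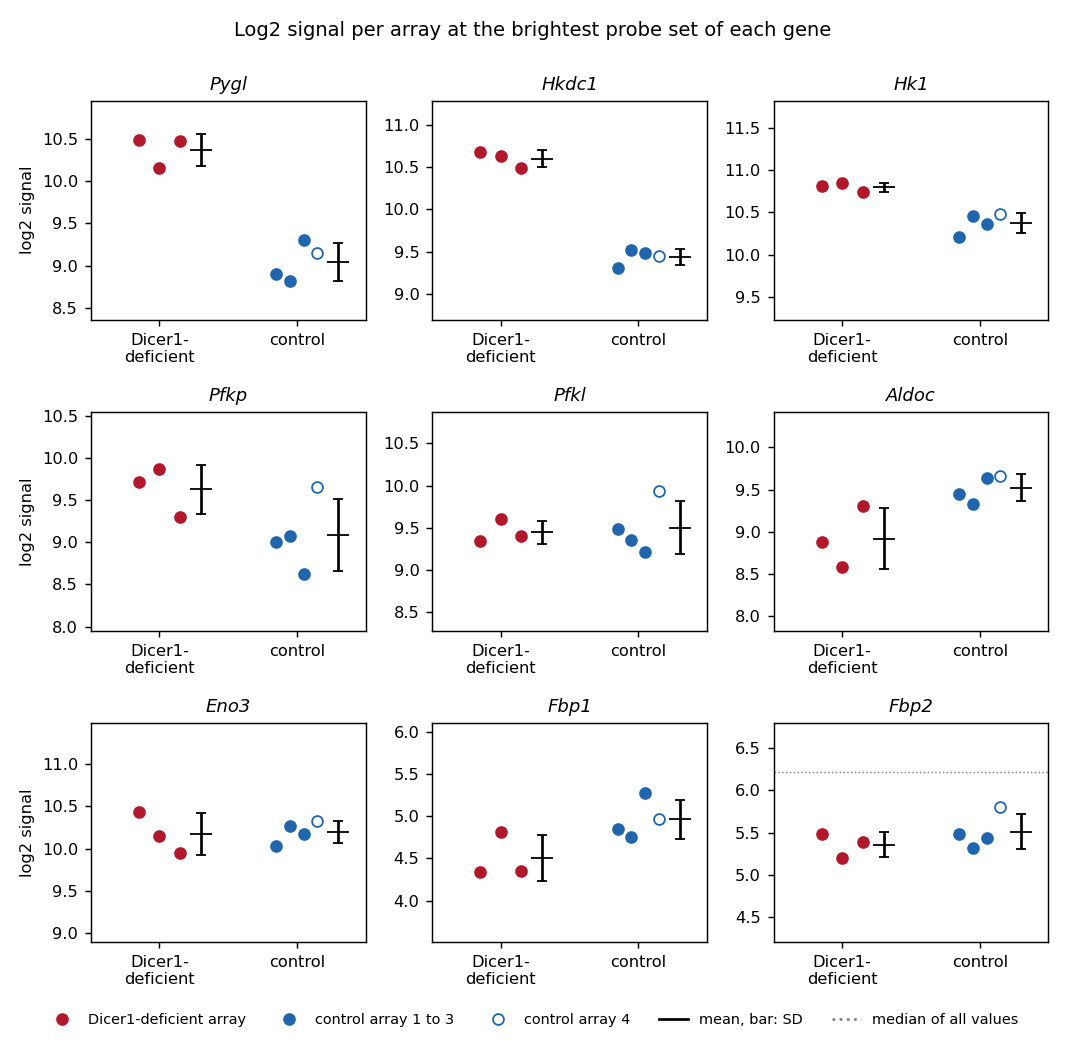
Log2 signal of each array at the brightest probe set of the 9 genes, with Dicer1-deficient arrays on the left and controls on the right of each panel, and the mean with its SD. All panels span the same range of log2 units. Pygl, Hkdc1 and Hk1 were higher in every Dicer1-deficient array than in any control, Aldoc was lower, and the other 5 overlapped.

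Pygl has the ubiquitin ligase gene Trim9 as its immediate neighbour on 1 side in the RefSeq gene order and Abhd12b, a gene of the hydrolase fold family, on the other. Trim9 rose by 2.59 on the log2 scale (SE 0.42; limma, Benjamini-Hochberg adjusted p = 0.0212). Its signal was 8.57, 9.26 and 8.40 in Dicer1-deficient arrays, against 5.60, 6.41, 7.13 and 5.47 in controls. On the mean of its probe sets the difference was 0.88 (limma adjusted p = 0.00818), where 5.86% of all genes passed. At its brightest probe set the call was lost without any 1 Dicer1-deficient array or without control 1 or 2 (adjusted p 0.0617 to 0.0924). Abhd12b had a log2 difference of -0.46 (limma adjusted p = 0.409). Of the 14 measured neighbours of the 9 genes, 2 passed at the brightest probe set, where 2.33% of all genes did. They were Trim9 and Pigs, which lies next to Aldoc.

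Of the hexokinase genes among the 9, Hkdc1 showed a clear separation of the groups and Hk1 a smaller one. Hkdc1 encodes hexokinase domain containing 1, a glucose-phosphorylating relative of hexokinase 1. Its brightest probe set read 10.68, 10.64 and 10.49 in Dicer1-deficient arrays, against 9.30, 9.52, 9.48 and 9.45 in controls. Both groups were tight, at 10.60 ± 0.10 (SD, n = 3) in Dicer1-deficient arrays and 9.44 ± 0.09 (SD, n = 4) in controls, a log2 difference of 1.16 (limma SE 0.10) or 2.24-fold.

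All 18 probe sets of Hkdc1 were higher in the Dicer1-deficient arrays, by 0.64 to 1.92 with a median of 1.37. The groups were apart at 17 of them, against the 7.35% of all probe sets named above. The exception was probe set 10369573, at which Dicer1-deficient array 2 read 6.48 and control 3 read 6.53. Even the 4 probe sets below the median signal had a median difference of 1.38, and the groups were apart at all 4. Control 4 was the lowest of the 7 arrays at 13 probe sets. Probe set 10369582 read 8.44, 8.32 and 8.32 in Dicer1-deficient arrays, against 6.86, 6.58, 7.08 and 5.26 in controls, the last being control 4. Without control 4 the median difference was 1.17 and the groups were apart at 17 probe sets (11.7% of all probe sets).

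Hk1 encodes the hexokinase of brain and most other tissues, which binds to mitochondria. At its brightest probe set it read 10.81, 10.84 and 10.74 in Dicer1-deficient arrays, against 10.21, 10.45, 10.36 and 10.48 in controls. The groups did not overlap, with a gap smaller than that of Hkdc1. The log2 difference was 0.42 (limma SE 0.10), or 1.34-fold, from means of 10.80 ± 0.05 (SD, n = 3) in Dicer1-deficient arrays and 10.37 ± 0.12 (SD, n = 4) in controls.

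The 25 probe sets of Hk1 comprised bright and dim ones. At the 19 with a mean signal at or above the median of all values, every difference was positive, from 0.22 to 1.04 with a median of 0.48, and the groups were apart at 16, where 7.35% of all probe sets had them apart in this direction. At the 6 dimmer ones the median difference was 0.18 and 1 separated the groups. The 2 negative differences, -0.18 and -0.09, came from probe sets 10369560 and 10369563, which read between 3.27 and 4.60, well under the median of all values. The largest came from probe set 10369549, with 7.48, 6.65 and 7.52 in Dicer1-deficient arrays and 6.96, 6.28, 6.84 and 4.62 in controls, a difference of 1.04 that was 0.52 without control 4. Averaged over the 25 probe sets, Hk1 read 7.87, 7.87 and 7.86 in Dicer1-deficient arrays, against 7.44, 7.48, 7.47 and 7.29 in controls, a difference of 0.45 and, without control 4, of 0.40.

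Hk1 and Hkdc1 are adjacent on chromosome 10 in the RefSeq gene order, and both were higher. The protein-coding genes on either side of the pair did not pass the limma test. Supv3l1, a mitochondrial RNA helicase gene beyond Hkdc1, read 8.79, 9.06 and 8.86 in Dicer1-deficient arrays, against 8.80, 8.57, 8.67 and 8.60 in controls (log2 difference 0.24, limma adjusted p = 0.371). On the mean of its probe sets Supv3l1 passed, at 0.34 (limma adjusted p = 0.0397), as 5.86% of all genes did. Tacr2, the neurokinin receptor gene beyond Hk1, was dim and had a log2 difference of -0.03 (limma adjusted p = 0.987), which was 0.27 without control 4.

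**Figure D2:**
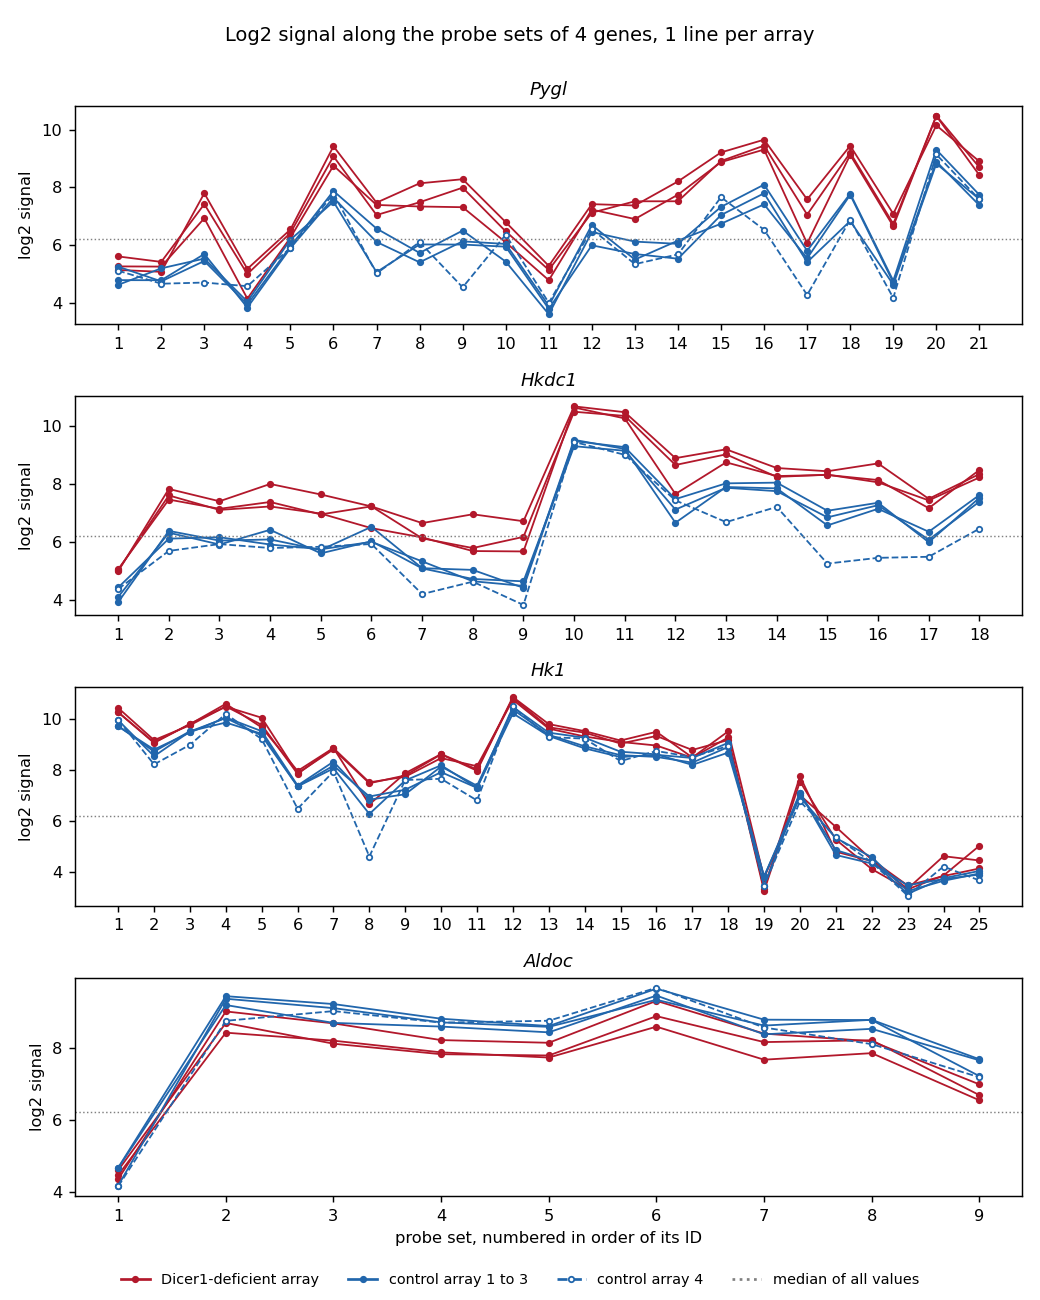
Log2 signal of each array along the probe sets of Pygl, Hkdc1, Hk1 and Aldoc, numbered in the order of their IDs, with 1 line per array. The files do not give the position of a probe set in the gene. Dicer1-deficient lines ran above the control lines at all 13 brighter probe sets of Pygl and at 17 of 18 of Hkdc1. Hk1 had a narrower gap, Aldoc lines ran in the opposite order at most probe sets, and control 4 dipped at some probe sets.

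Of the phosphofructokinase genes, Pfkp was higher in the Dicer1-deficient arrays at 23 of its 25 probe sets and Pfkl at 13 of its 20. Pfkp encodes the platelet form and Pfkl the liver form of the enzyme. Pfkp read 9.71, 9.87 and 9.30 in Dicer1-deficient arrays, against 9.003, 9.07, 8.62 and 9.65 in controls, at its brightest probe set. Control 4 lay inside the Dicer1-deficient range, and controls 1 to 3 lay below it. The log2 difference was 0.54 (limma SE 0.25) with control 4 and 0.72 without it.

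Over the 25 probe sets of Pfkp the median difference was 0.35, with a range from -0.15 to 1.18. The groups were apart at 7, where 7.35% of all probe sets had them apart in this direction, and at 11 without control 4, where 11.7% did. That array was the lowest of the 7 at 10 probe sets and the highest at 3. At probe set 10407486, which had the largest difference, the Dicer1-deficient arrays read 7.48, 7.25 and 7.32, controls 1 to 3 read 6.73, 6.85 and 6.95, and control 4 read 4.15. Averaged over all 25 probe sets, Pfkp read 7.30, 7.25 and 7.10 in Dicer1-deficient arrays, against 6.74, 6.88, 6.85 and 6.55 in controls. The mean separated the groups where the brightest probe set did not, with a difference of 0.46, or 0.39 without control 4.

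Pfkl showed no separation. It read 9.34, 9.60 and 9.40 in Dicer1-deficient arrays, against 9.49, 9.36, 9.21 and 9.94 in controls, a log2 difference of -0.05 (limma SE 0.18). Control 4 was the highest of the 7 arrays there, and without it the difference was 0.10. The differences of its 20 probe sets, 13 positive and 7 negative, ran from -0.25 to 0.33 with a median of 0.06. The groups were apart at 1 probe set in each direction, where 7.35% of all probe sets were apart with higher and 6.62% with lower Dicer1-deficient arrays. As means over probe sets the values were 7.39, 7.29 and 7.31 in Dicer1-deficient arrays, against 7.35, 7.33, 7.22 and 7.24 in controls, a difference of 0.05, where that of Pfkp was 0.46. The difference between the 2 genes was not tested, because the same contrast chose them.

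**Figure D3:**
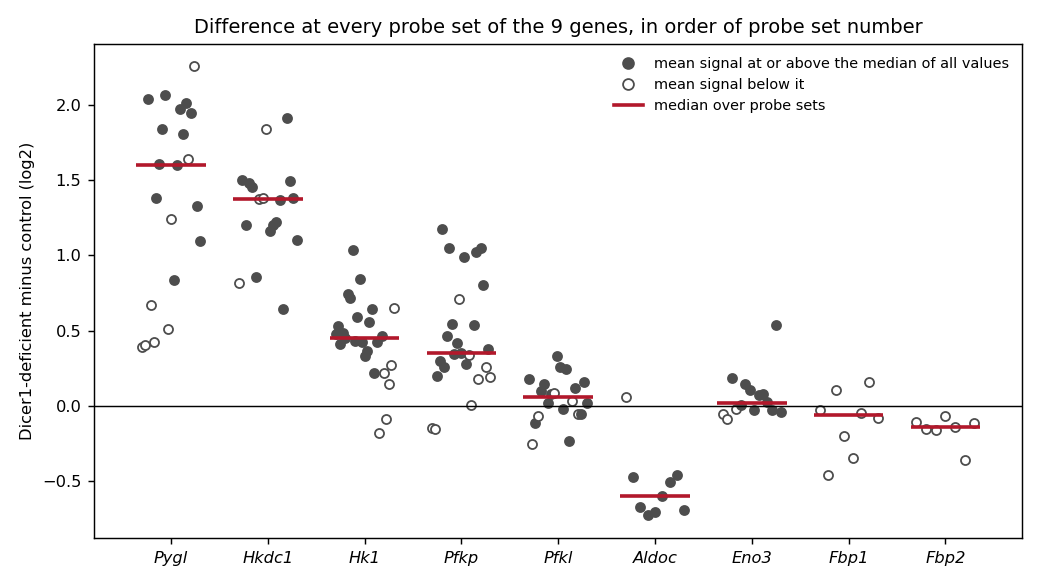
Log2 difference, Dicer1-deficient minus control, at every probe set of the 9 genes, ordered by ID within a gene. Filled points have a mean signal at or above the median of all values (6.22), open points lie below it, and the red line is the median over probe sets. All 21 points of Pygl and all 18 of Hkdc1 lay above 0, those of Pfkl lay on both sides, and 8 of 9 points of Aldoc lay below 0.

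Aldoc was the only 1 of the 9 whose brightest probe set was lower in every Dicer1-deficient array than in any control. It encodes aldolase C, the form of brain and glia. It read 8.88, 8.58 and 9.30 in Dicer1-deficient arrays, against 9.45, 9.33, 9.64 and 9.66 in controls. Dicer1-deficient array 3 lay just under the lowest control, and the other 2 lay further below. The means were 8.92 ± 0.36 (SD, n = 3) in Dicer1-deficient arrays and 9.52 ± 0.16 (SD, n = 4) in controls, a log2 difference of -0.60 (limma SE 0.18) or 1.52-fold lower.

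At the 8 brighter probe sets of Aldoc the differences ran from -0.73 to -0.46, with a median of -0.64. The groups were apart at 5 of the 8, where 6.62% of all probe sets had that pattern in this direction, and at 7 of all 9 without control 4, where 13.1% did. The remaining probe set, 10379154, read between 4.15 and 4.67 on every array and differed by 0.06. Array 3 was the highest of the Dicer1-deficient arrays at 7 of the 9 probe sets. Probe set 10379157 gave the largest difference, with 7.82, 7.87 and 8.21 in Dicer1-deficient arrays and 8.59, 8.70, 8.80 and 8.70 in controls.

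Aldoc is also expressed by glial cells, and the markers of Mueller glia, the supporting glia of the retina, were set beside it. Of 14 markers listed 5 were measured, 4 with a positive difference, and none passed the limma test (2.33% of all genes did). Their summed signal was 12.94 to 13.05 (log2) in Dicer1-deficient arrays and 12.77 to 12.88 in controls. Glul, the glutamine synthetase gene, read 12.57 in Dicer1-deficient arrays and 12.42 in controls, and Prdx6, a peroxiredoxin gene, 10.46 and 10.34. The part of glial RNA in the signal of Aldoc was not tested. Pigs, a gene of the glycosylphosphatidylinositol anchor pathway next to Aldoc on chromosome 11, rose by 0.43 (SE 0.08; limma adjusted p = 0.0482), with 10.03, 10.003 and 10.02 in Dicer1-deficient arrays and 9.55, 9.61, 9.63 and 9.56 in controls. That call was lost without any 1 of the arrays other than control 4 (adjusted p 0.113 to 0.198), with each array centred on its median (0.126) and under robust moderation (0.051).

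Eno3 did not separate the groups, and it varied more among the Dicer1-deficient arrays than among the controls. It encodes beta-enolase, the form of skeletal muscle. At its brightest probe set it read 10.44, 10.15 and 9.94 in Dicer1-deficient arrays, against 10.03, 10.27, 10.18 and 10.33 in controls, a log2 difference of -0.03 (limma SE 0.14), or 0.02 without control 4. None of its 14 probe sets had the groups apart. Over all probe sets, 7.35% were apart with higher and 6.62% with lower Dicer1-deficient arrays. The median difference of the 14 was 0.02. Averaged over the 14, the values were 8.82, 7.87 and 7.34 in Dicer1-deficient arrays, against 7.93, 8.13, 8.01 and 7.71 in controls. Dicer1-deficient array 1 was the highest of its group at all 14 probe sets.

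Muscle markers followed the same order among the Dicer1-deficient arrays. All 14 measured of 29 skeletal muscle genes, each at its brightest probe set, were set against their own control mean. Their median was 0.47 in Dicer1-deficient array 1, 0.06 in array 2 and -0.39 in array 3, while Eno3 on the mean of its probe sets was at 0.87, -0.08 and -0.60. In 10 of the 14 genes array 1 was the highest of its group, and in 10 array 3 was the lowest. In the controls Eno3 and the muscle genes did not follow the same order. The muscle medians in controls 1 to 4 were -0.10, -0.0039, 0.09 and 0.10. Eno3, on the mean of its probe sets, was at -0.02, 0.19, 0.06 and -0.24 there. The summed signal of the list was 12.98 to 13.98 (log2) in Dicer1-deficient arrays and 13.18 to 13.48 in controls. The myosin genes Myh8 (11.15 in Dicer1-deficient arrays and 11.12 in controls) and Myl1 (11.33 and 11.21) were bright in both groups, and none of the 14 passed the limma test, with Myh4 at 0.40 and the acetylcholine receptor gene Chrng at -0.35. The part of muscle RNA in the signal of Eno3 was not tested.

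**Figure D4:**
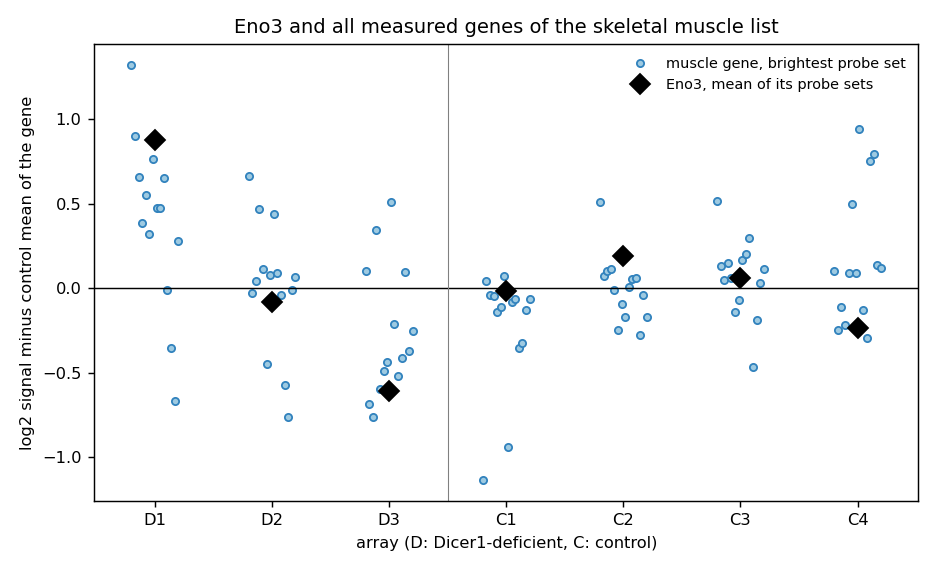
Log2 signal of Eno3 (mean of its 14 probe sets, black diamonds) and of the 14 measured skeletal muscle genes (blue circles, brightest probe set), each minus the mean of the 4 controls for that gene, by array. In the Dicer1-deficient arrays (D1 to D3) Eno3 was at 0.87, -0.08 and -0.60, beside muscle medians of 0.47, 0.06 and -0.39. In the controls (C1 to C4) Eno3 stayed between -0.24 and 0.19 and the muscle medians between -0.10 and 0.10, in a different order.

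The fructose bisphosphatase genes were dim throughout. Fbp1 encodes the liver form and Fbp2 the muscle form, and they are adjacent on chromosome 13 in the RefSeq gene order. None of their 15 probe sets reached the median of all values on any array, and the highest single value was 5.80, so neither was shown to be above background. At its brightest probe set Fbp1 read 4.33, 4.82 and 4.35 in Dicer1-deficient arrays, against 4.85, 4.75, 5.28 and 4.97 in controls, and Fbp2 read 5.48, 5.20 and 5.39, against 5.48, 5.32, 5.44 and 5.80. The groups overlapped in both, and no probe set of either had them apart. Over all probe sets, 7.35% were apart with higher and 6.62% with lower Dicer1-deficient arrays. Without control 4, 1 of Fbp1 was apart with lower Dicer1-deficient arrays, where 13.1% of all probe sets were. The log2 differences were -0.46 (limma SE 0.17) for Fbp1 and -0.15 (limma SE 0.14) for Fbp2, and no fold is given for them. Averaged over probe sets, Fbp1 differed by -0.11 and Fbp2 by -0.16.

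Over the 9 genes, 3 were higher with the groups apart, 1 was lower with the groups apart, and 5 overlapped. The groups were apart in 9.27% of all genes with higher and in 7.02% with lower Dicer1-deficient arrays. Nothing is read from these counts, since the genes were named with this contrast in view. The median log2 difference was -0.03 over the 9 genes and -0.01 over all genes.

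The other genes of glucose metabolism gave no call at the brightest probe set. Of 125 such genes on 7 textbook lists, 23 were measured, and in the limma fit none passed the threshold in either direction, where 2.33% of all genes passed it. An unadjusted p under 0.05 was reached by 3 of them, Pgk1, Pdk2 and Hif1a, where 14.5% of all genes reached it. Differences were positive in 14 and negative in 9, with a median of 0.04 against -0.01 over all genes. The groups were apart with higher Dicer1-deficient arrays in 5 (Pgk1, Pdk2, Rpe, Hif1a and Egln3), where 9.27% of all genes had that pattern. They were apart with lower Dicer1-deficient arrays in 1, G6pc3, where 7.02% of all genes had that pattern.

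In the list of other glycolysis genes (4 of 28 measured, median difference 0.11), Pgk1, the phosphoglycerate kinase gene, read 10.33 ± 0.10 (SD, n = 3) in Dicer1-deficient arrays and 9.94 ± 0.08 (SD, n = 4) in controls. Its log2 difference of 0.40 did not pass (limma adjusted p = 0.0938), though it did without control 4, as 5.18% of all genes did (0.44, adjusted p = 0.0324, with 0.0159 to 0.32 over the alternatives). RefSeq places Pgk1 on chromosome X. The ID of its brightest probe set, 10399381, lies between those of Hif1a (10396425) and Dld (10399829), both on chromosome 12. Whether its 3 probe sets read Pgk1, a related copy or both cannot be told here. Hk3, a hexokinase gene of blood cells, read 5.62, 6.40 and 6.71 in Dicer1-deficient arrays, against 6.01, 6.14, 5.85 and 7.199 in controls, with overlapping groups (log2 difference -0.06, limma adjusted p = 0.979, and 0.24 without control 4). Pfkfb2, which makes the activator of phosphofructokinase, had a log2 difference of 0.10 and Pgam2, the muscle phosphoglycerate mutase gene, of 0.11 (limma adjusted p = 0.948 and 0.963). Without control 4 these were 0.29 and -0.19.

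The other glycogen genes lay near 0 (5 of 30 measured, median difference 0.00193). Gaa, the lysosomal enzyme that digests glycogen, read 10.70 in Dicer1-deficient arrays and 10.58 in controls. Epm2a, the glycogen phosphatase gene laforin, had a log2 difference of -0.25 and Nhlrc1, its ubiquitin ligase partner malin, of 0.16 (limma adjusted p = 0.75 and 0.651). Ugp2, which makes the sugar donor of glycogen synthesis, was bright at 10.76 to 11.17 in Dicer1-deficient arrays and 10.82 to 11.22 in controls. Glycogen synthase and branching enzyme genes were not analysed here. G6pc3, a glucose phosphatase gene and the 1 of 7 gluconeogenesis genes measured, read 9.68 ± 0.03 (SD, n = 3) in Dicer1-deficient arrays and 9.84 ± 0.09 (SD, n = 4) in controls. Its groups were apart, but it did not pass (log2 difference -0.16, limma adjusted p = 0.523). At 5 of its 8 probe sets the groups were apart with lower Dicer1-deficient arrays, where 6.62% of all probe sets had that pattern. With its probe sets averaged and control 4 left out it passed, as 17% of all genes did (-0.22, limma adjusted p = 0.0293, with up to 0.785 over the alternatives).

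**Figure D5:**
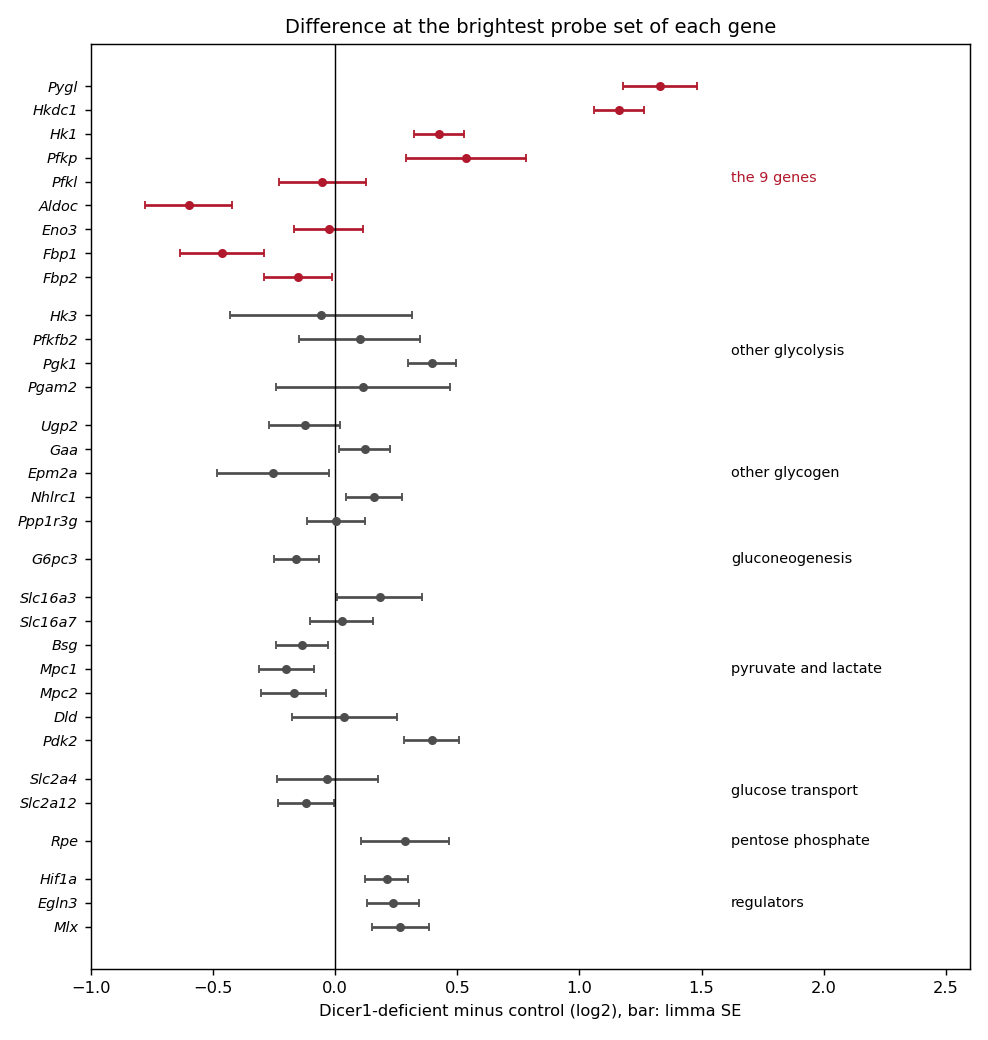
Log2 difference, Dicer1-deficient minus control, at the brightest probe set of the 9 genes (red) and of the 23 other measured genes of glucose metabolism (grey), with bars of 1 limma SE. Pygl is at 1.33 and Hkdc1 at 1.16, and the 23 other genes run from -0.25 to 0.40. The 9 were named with these differences in view and are left out of the 23. The lists of the 23 were chosen with earlier results of these data known, so the plot does not rank one set against the other.

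Of the genes that handle pyruvate and lactate, 7 of 23 were measured, with a median difference of 0.03. Pdk2, a kinase that shuts off pyruvate dehydrogenase, read 11.22, 11.25 and 11.11 in Dicer1-deficient arrays, against 10.59, 10.84, 10.81 and 10.95 in controls. The groups did not overlap, but the difference of 0.40 did not pass at the brightest probe set (limma adjusted p = 0.148). It passed on the mean of its 13 probe sets, all of them higher (0.40, limma adjusted p = 0.0254), as 5.86% of all genes did, and also without control 4 (0.45, adjusted p = 0.0472, with 0.00854 to 0.404 over the alternatives). The mitochondrial pyruvate carrier genes Mpc1 and Mpc2 had log2 differences of -0.20 and -0.17 (limma adjusted p = 0.508 and 0.693). RefSeq places Mpc1 on chromosome 17. The ID of its 1 probe set, 10402649, lies between those of Dicer1 (10402456, chromosome 12) and Pitrm1 (10403380, chromosome 13). Whether that probe set reads Mpc1, a related copy or both cannot be told here. Bsg, the partner protein of lactate transporters, was bright at 12.42 to 12.64 in Dicer1-deficient arrays and 12.57 to 12.83 in controls.

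Glucose transporter genes (2 of 12 measured) had log2 differences of -0.12 for Slc2a12 and -0.03 for Slc2a4, the insulin-regulated transporter (limma adjusted p = 0.772 and 0.979), and the second was 0.14 without control 4. Slc2a1, the main glucose transporter of the RPE, was not analysed here. Rpe, the ribulose phosphate epimerase gene and the 1 of 10 pentose phosphate genes measured, had a difference of 0.29 (limma adjusted p = 0.559), and of 0.12 without control 4. All 3 measured of 15 hypoxia and carbohydrate regulators were positive and did not pass at the brightest probe set. They were Hif1a, the hypoxia-inducible factor gene (0.21, limma adjusted p = 0.326), Mlx, a partner of the carbohydrate response factor (0.27, 0.348), and Egln3, a prolyl hydroxylase gene that acts on the hypoxia factor (0.24, 0.365).

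Hif1a depended on how its probe sets were combined. Its brightest read 12.63, 12.69 and 12.58 in Dicer1-deficient arrays, against 12.46, 12.40, 12.45 and 12.38 in controls. All of its 18 probe sets were higher, 13 of them with the groups apart, where 7.35% of all probe sets had that pattern in this direction. On their mean the difference was 0.51 and passed, as 5.86% of all genes did (limma adjusted p = 0.0124, with 0.00336 to 0.631 over the alternatives).

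Markers of the cell types that the dissected tissue could hold moved beside these genes in part, and their part in the differences above was not tested. The differences of the 8 RPE and pigment markers were all negative, though that of Pmel, -0.05, was 0.03 after repeated quantile normalization, with a median of -0.37 and a summed signal of 14.02 to 14.14 (log2), against 14.31 to 14.48 in controls. Kcnj13, the RPE potassium channel gene, fell by 1.19 (limma adjusted p = 0.0051), and Rdh10, a retinol dehydrogenase gene, had a difference of -0.37. The 4 measured of 10 melanocyte and Schwann cell markers were lower too, summing to 10.26 to 10.33 in Dicer1-deficient arrays and 10.67 to 11.06 in controls, with Pax3 at -0.90, Erbb3 at -0.59 and Cdh19 at -0.34. The 7 measured of 27 photoreceptor markers had a median of 0.22 and summed to 8.97 to 9.60 in Dicer1-deficient arrays and 8.52 to 9.14 in controls. Their differences were 1.38 for Pde6g, 0.76 for Rp1, 0.41 for Sag, 0.22 for Aipl1, 0.08 for Gngt2, -0.01 for Rcvrn and -0.12 for Cnga3. With 1 array left out Pde6g ran from 0.89 to 1.90, Sag from 0.20 to 0.58 and Gngt2 from -0.14 to 0.24. Recoverin, Rcvrn, stayed between 4.49 and 5.26 on all arrays.

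The 9 measured of 12 fibroblast markers were bright and summed to 15.09 to 15.22 in Dicer1-deficient arrays and 15.21 to 15.32 in controls, with Col3a1 at 0.01, Col1a1 at -0.01, Fmod at -0.60 and Omd at -0.92. The 3 measured of 12 macrophage markers were Cd68 (-0.46), Ptprc (0.03) and Lyz2 (-0.02, and 0.23 without control 4), with sums of 10.67 to 10.91 in Dicer1-deficient arrays and 10.61 to 11.31 in controls. Slc4a1, the 1 measured of 8 erythrocyte markers, differed by -0.18 (7.39 to 8.43 in Dicer1-deficient arrays and 7.78 to 8.33 in controls). Of all these markers Kcnj13 alone passed the limma test.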

How the data were processed

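Biotin-labelled total RNA of dissected RPE was measured on Affymetrix arrays, per the labels. Log2 signals per probe set were deposited by the authors, and RMA and Partek 6.6 are named in the submitters' processing notes, with no role. That the scale is log2 rests on the range of the values, 2.71 to 13.50. The genome build is not given in the sources used here. Of 65535 probe sets, 53644 have 1 gene symbol, which gave 5017 genes, and genes without values here were not assessed. Symbols were updated through RefSeq (4321 current, 698 updated, 13 unmatched).

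Each gene was represented by its brightest probe set, judged by the mean of all 7 arrays. Dim genes were kept, and the files hold no detection calls. Limma fits (lmFit, then eBayes) compared 3 Dicer1-deficient with 4 control arrays in two-sided tests, with Benjamini-Hochberg adjustment across genes, or across probe sets, and a threshold of 0.05. Differences are Dicer1-deficient minus control. The number of arrays limits the precision. The members and lists were chosen with earlier results of these data known. Named were the 9 members, of each list of other pathway genes any past the threshold and in any case the 3 with the smallest p, and of each marker list the 2 brightest and the 2 with the smallest p. Hk3, Ugp2, Bsg, Rcvrn, Aipl1 and Cnga3, the neighbouring genes, the array-by-array comparison of Eno3 with muscle genes and the probe set values without control 4 were added after seeing the data. Alternatives were the mean or median of probe sets, repeated quantile normalization, median centring, a filter on dim genes, array weights, a variance trend, robust moderation and leaving out each array. The fit was tested on simulated data in which a gene had the same noise on every array. That setting does not cover an array that stands apart, as control 4 did. R 4.3.3, limma 3.58.1, Python 3.11.15, pandas 2.3.3 and matplotlib 3.10.9 were used.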

Additional observations from a re-analysis of the deposited data

Results flagged for a closer look

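In the control group of 4, 1 array lay far from the other 3 in 3 of the 61 genes examined, where chance gives about 1 in 20. Rpe read 8.37 in control 4 and 9.003 to 9.06 in the other controls. Pde6g read 4.37 in control 1, against 6.13 to 6.41 in the others, and Pax3 read 8.34 in control 1, against 8.53 to 8.54. None of the 9 enzyme genes was among them at its brightest probe set. Over the 147 probe sets of these 9 genes, 11 had such an array, and in 8 of the 11 it was control 4 at its low end, in Hkdc1, Hk1 and Pfkp.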

How the results depend on the processing

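With 3 and 4 arrays and no detection calls, small differences and dim probe sets are the weakest values. At the brightest probe set 117 of 5017 genes were called. The count was 294 on the mean of probe sets, 176 on their median, 853 on the mean without control 4 and 385 with array weights. It was 33 to 260 when 1 array was left out. Over probe sets 570 were called, 1631 with array weights and 144 to 1236 when 1 array was left out. Of the 23 other pathway genes 0 were called, where 2.33% of all genes were. On the mean of probe sets 2 were called (5.86% of all genes), and 4 on the mean without control 4 (17% of all genes). On the median 2 were called, with array weights 2, and 0 to 2 when 1 array was left out. Nothing is read from these counts. The median difference of the 9 enzyme genes was -0.03, 0.25 on the median of probe sets and 0.42 with dim genes filtered out, which removed Fbp1 and Fbp2. Over all alternatives the log2 difference ran from 1.26 to 1.49 for Pygl, 1.12 to 1.37 for Hkdc1, 0.37 to 0.48 for Hk1, 0.38 to 0.72 for Pfkp, -0.79 to -0.43 for Aldoc and -0.22 to -0.04 for the dim Fbp2, while Pfkl (-0.15 to 0.25), Eno3 (-0.16 to 0.09) and the dim Fbp1 (-0.62 to 0.0135, positive on the median of probe sets) took both signs. Among other pathway genes and neighbours, directions turned for these, none of which passed. With probe sets averaged these were Mpc2 (0.15), Slc2a4 (0.0216) and Slc2a12 (0.0162). On the median they were Pgam2 (-0.00569), Hk3 (0.0488), Nhlrc1 (-0.16), Slc2a4 (0.0526), Slc2a12 (0.00459), Egln3 (-0.0245) and Tacr2 (0.00561). Averaged without control 4 they were Pgam2 (-0.0687), Mpc2 (0.0712), Mlx (-0.0154), Abhd12b (0.0303) and Tacr2 (0.0811), and with array weights Pgam2 (-0.18), Slc2a4 (0.15), Tacr2 (0.23) and Hk3 (0.22). With 1 array left out Pfkfb2 ran from -0.10 to 0.29, Pgam2 from -0.19 to 0.34, Slc2a4 from -0.15 to 0.14, Tacr2 from -0.16 to 0.27 and Hk3 from -0.29 to 0.25. Of the named markers, Gngt2 (-0.0656 on the mean of probe sets, -0.40 on the median, -0.0727 on the mean without control 4 and -0.0641 with array weights), Pmel (0.0300 after repeated quantile normalization), Myh4 (-0.10 on the median), Chrng (0.0280 on the mean without control 4) and Col3a1 (-0.27 on the mean) turned, as did Myh8, Myl1, Col1a1, Ptprc, Lyz2, Slc4a1, Rcvrn, Aipl1 and Cnga3 under at least 1 alternative. The causes were not tested, apart from the genes and arrays that an alternative removes. No paired analysis was possible because the labels give no replicate numbers shared between the groups.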
